A study of Mus musculus with 8 samples.

Results

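The kinases that stand just upstream and just downstream of p38 were examined in cultured skin fibroblasts of Nd2-mutant and control mice. p38, a mitogen-activated protein kinase (MAPK), is switched on by phosphorylation in a cascade: a MAP kinase kinase kinase (MAP3K) phosphorylates a MAP kinase kinase (MAP2K), which phosphorylates p38. Active p38 in turn phosphorylates a small set of further protein kinases, the MAPK-activated protein kinases and the MSK kinases, which act on mRNA-binding proteins and on chromatin. In fibroblasts the cascade responds to oxidative and genotoxic stress and to inflammatory cytokines, and it is known for its part in senescence and in the secretion of IL-6. An array measures mRNA, whereas the activity of these kinases is set mainly by phosphorylation, which was not measured here.

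The 10 kinases were chosen by name. Those upstream were Map3k5 (ASK1), Map3k7 (TAK1), Map2k3 (MKK3), Map2k4 (MKK4) and Map2k6 (MKK6). Those downstream were Mapkapk2 (MK2), Mapkapk3 (MK3), Mapkapk5 (PRAK), Rps6ka4 (MSK2) and Rps6ka5 (MSK1). A probe for 8 of the 10 symbols was found among the 18138 gene symbols of the table, with 11 probes in all, and Map3k5 and Mapkapk5 were not analysed here. The p38 genes themselves were not counted among them. The rule itself uses no measured value, and the kinases were picked with earlier results of these data known.

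RNA of each mouse was hybridised to its own Illumina MouseRef-8 v2.0 array, 8 in all. The Nd2-mutant strain was C57BL/6J-mtALR/LtJ, with the male mice 28 and 32 and the female mice 34 and 35. The control strain was C57BL/6J-mtAKR/J, with the male mice 16 and 17 and the female mice 15 and 37. Both are conplastic strains, which carry the nuclear genome of C57BL/6J and the mitochondrial genome of another strain, and they differ in 1 base of the mitochondrial gene Nd2, which exchanges a leucine for a methionine in a complex I subunit. All mice were 12 months old, the cells were freed from skin by enzyme digestion and grown in serum, and the labels name no treatment. The question was whether the mRNA of the kinases around p38 differed between the strains.

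Detection meant a p-value under 0.01 against the negative controls of the array. Between 10973 and 11350 of the 25697 probes were detected in the Nd2-mutant arrays and between 10663 and 10837 in the controls. The arrays of 7 mice correlated with the others at a mean r of 0.963 to 0.974, and the array of control mouse 15 at 0.934. All 8 of the fibroblast markers examined (among them Col1a1, Col1a2 and Pdgfra) were detected on all 8 arrays. Markers of other cell types were present as well. The endothelial genes Emcn, Pecam1 and Tek, the macrophage genes Laptm5 and Csf1r and the keratinocyte genes Krt10 and Krt14 were detected on all 8 arrays by at least 1 probe, whereas Ptprc, Kdr, Tyr, Dct and Fabp4 were detected on none. The summed intensity of the macrophage markers lay between 198 and 544 in 7 mice and at 1480 in Nd2-mutant mouse 35.

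As sequence context for the upstream kinases, the 250 bases before the transcription start are printed for Map2k3 and Map2k6. These MAP2Ks both act mainly on p38, and they behaved differently on the arrays: the Map2k3 probe was detected in 8 of 8 mice and separated the sexes, and no Map2k6 probe passed the detection filter. The sequences are from RefSeq, build GRCm38.p6, 5′ to 3′ on the plus strand. Map2k3 lies at chr11:60931804-60932053 and Map2k6 at chr11:110398852-110399101, the first by position of 3 listed Map2k6 promoters. Capitals mark a GC box (GGGCGG) or a CCAAT box (CCAAT) on either strand.
Map2k3: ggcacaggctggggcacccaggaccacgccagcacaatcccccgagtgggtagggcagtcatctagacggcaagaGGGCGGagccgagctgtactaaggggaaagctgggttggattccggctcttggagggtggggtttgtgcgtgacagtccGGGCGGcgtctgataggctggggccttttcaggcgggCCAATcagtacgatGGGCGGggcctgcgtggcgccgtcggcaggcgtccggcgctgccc
Map2k6: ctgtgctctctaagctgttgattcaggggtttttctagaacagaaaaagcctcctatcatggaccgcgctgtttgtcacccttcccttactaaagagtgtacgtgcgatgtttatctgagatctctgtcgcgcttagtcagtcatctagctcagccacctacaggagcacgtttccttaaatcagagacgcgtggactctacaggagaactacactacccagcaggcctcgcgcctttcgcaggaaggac

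The Map2k3 sequence held 3 GC boxes and 1 CCAAT box, with a GC content of 67.6% and 20 CpG dinucleotides. The Map2k6 sequence held neither, had a GC content of 50.4% and 12 CpG dinucleotides, and held 1 match to the AP-1 motif TGANTCA, which is not in capitals. The median over all 32851 RefSeq promoters of the same length was 52.4% GC and 6 CpG dinucleotides. Across the 14 promoters listed for the 10 kinases the GC content ran from 40.0% to 80.8%. A GC box was found in 6 of the 14 (32.7% of all promoters), a CCAAT box in 3 (33.8%), TGACG, the core of the cyclic AMP response element, in 6 (17.8%), TGANTCA in 2 (6.7%) and TATAAA in 1 (12.4%), each counted on both strands. Both listed Map2k4 promoters held 0 GC boxes, and the Map2k4 probe was detected on all 8 arrays. The promoter of Rps6ka5, whose probes missed the detection filter, held 3 GC boxes and 3 CCAAT boxes. A further listed Map2k6 promoter held 1 GC box. These matches describe letters, not bound factors, and a link between them and detection was not tested.

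No tested kinase around p38 passed the test for a difference in mRNA between the strains. Probes of 6 of the 8 genes (Map3k7, Map2k3, Map2k4, Mapkapk2, Mapkapk3 and Rps6ka4) were detected on all 8 arrays and were tested, 1 probe for each gene. In Nd2-mutant fibroblasts 3 stood above the controls and 3 below, by log2 differences between -0.11 and 0.13. With limma, 0 of the 6 passed an adjusted p of 0.05 (0.00% of the 10414 probes tested did, the smallest adjusted p being 0.639), and 0 of the 6 had an unadjusted p under 0.05 (7.63% of all probes tested, 795 probes, did). The 95% intervals of the 6 differences lay between -0.63 and 0.51 on the log2 scale, and each held 0. In 0 of the 6 probes did the values of the strains lie apart without overlap (4.37% of all probes tested did). Without control mouse 15, whose array stood apart, the 6 differences lay between -0.15 and 0.094, with Map3k7 at -0.11 in place of 0.040.

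**Figure D1:**
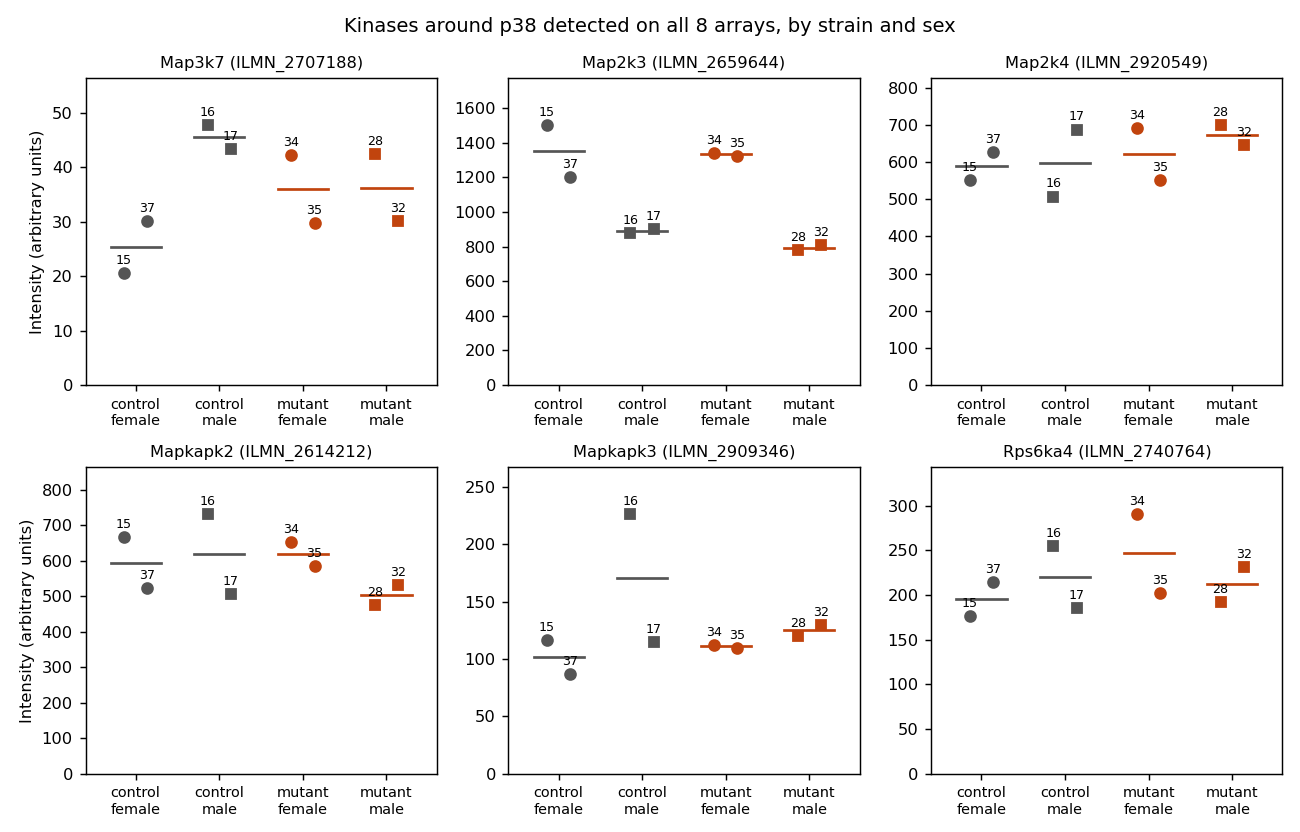
Normalized intensity (arbitrary units, linear axis from 0) of the 6 tested kinases in each mouse, by strain and sex; points are mice, numbered as in the labels, and bars are means of 2 mice. The strains overlap in every panel, the 4 females lie above the 4 males for Map2k3, and control mouse 16 stands at 226 for Mapkapk3.

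Map3k7 encodes TAK1, the MAP3K through which IL-1, TNF and TGF-β signals reach both p38 and NF-κB. Its probe on chromosome 4 read 42.4, 30.1, 42.2 and 29.7 in the Nd2-mutant mice 28, 32, 34 and 35, and 20.6, 47.7, 43.4 and 30.2 in the control mice 15, 16, 17 and 37. The control mice held both the lowest and the highest value, and the Nd2-mutant mice lay between them. The means were 36.1 ± 7.18 in the mutant and 35.5 ± 12.4 in the control strain (SD, n = 4), and the log2 difference was 0.040 with a standard error of 0.20 (limma, adjusted p = 0.958). Within the males the log2 difference between the strains was -0.25 and within the females 0.33, each from 2 mice against 2. The difference between the sexes in the strain effect was -0.57 with a standard error of 0.33, and did not pass the test (limma, unadjusted p = 0.122, adjusted p above 0.99).

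The MAP2Ks are the enzymes that phosphorylate p38 itself. Map2k3 read 779.7, 807, 1343 and 1326 in the Nd2-mutant mice 28, 32, 34 and 35, and 1502, 878, 904 and 1204 in the control mice 15, 16, 17 and 37. Each strain held a low pair, its males, and a high pair, its females. The means were 1064 ± 313 in the mutant and 1122 ± 293 in the control strain (SD, n = 4), and the log2 difference was -0.088 with a standard error of 0.24 (limma, adjusted p = 0.918). The sign of this difference turned without mouse 28, without mouse 32 or without control mouse 15, to values of up to 0.062. In the males the log2 difference between the strains was -0.16 and in the females -0.011, each from 2 mice against 2.

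Map2k4, which phosphorylates JNK as well as p38, read 699, 645, 691 and 551 in the Nd2-mutant mice 28, 32, 34 and 35, and 552, 507, 688 and 626 in the control mice 15, 16, 17 and 37. Mutant mouse 35 lay among the low controls, and control mouse 17 among the high mutants. The means were 647 ± 68.2 and 593 ± 79.8 (SD, n = 4), and the log2 difference was 0.12 with a standard error of 0.15 and a 95% interval from -0.21 to 0.45 (limma, adjusted p = 0.810). It had the smallest unadjusted p of the 6 kinases, 0.421 in limma, and an exact permutation p of 0.257 (2-sided). Its coefficient of variation over the 8 arrays was 12.0%, and 15.6% for Mapkapk2, 17.8% for Rps6ka4, 25.8% for Map2k3, 26.2% for Map3k7 and 33.0% for Mapkapk3.

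Map2k6, the close relative of Map2k3, was represented by 3 probes on chromosome 11, and none passed the filter, which asks for detection on all 4 arrays of at least 1 strain. ILMN_2623856 read 13.6, 13.1, 10.2 and 10.5 in the Nd2-mutant mice 28, 32, 34 and 35, and 2.73, 12.0, 7.09 and 7.46 in the control mice 15, 16, 17 and 37. It was detected in mutant mice 28 and 32 and in no control mouse, and control mouse 16 lay above mutant mice 34 and 35. Within each sex both Nd2-mutant values lay above both control values, most of them not detected. The other probes ranged from -4.99 to 3.52 and from -0.919 to 6.92, around the background, and were detected on 0 of 8 arrays. Map2k6 mRNA was thus near or below the detection limit of these probes, and no strain difference was tested.

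Mapkapk2 encodes MK2, the p38-activated kinase that phosphorylates HSP27 and tristetraprolin and so lengthens the life of cytokine mRNAs. Its probe on chromosome 1 read 475, 532, 653 and 587 in the Nd2-mutant mice 28, 32, 34 and 35, and 668, 732, 507 and 522 in the control mice 15, 16, 17 and 37. The highest values were those of control mice 15 and 16 and the lowest that of mutant mouse 28, with the other mice overlapping. The means were 562 ± 76.3 and 607 ± 110.3 (SD, n = 4), and the log2 difference was -0.10 with a standard error of 0.17 (limma, adjusted p = 0.859).

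Mapkapk3 encodes MK3, which shares most of its substrates with MK2. Its probe on chromosome 9 read 120.3, 129, 112 and 109.9 in the Nd2-mutant mice 28, 32, 34 and 35, and 117, 226, 115 and 86.9 in the control mice 15, 16, 17 and 37. The Nd2-mutant mice lay close together, and control mouse 16 stood above all other mice. The means were 118 ± 8.92 and 136 ± 61.7 (SD, n = 4), and the log2 difference was -0.11 with a standard error of 0.23 (limma, adjusted p = 0.890). Without control mouse 16 the difference turned to 0.14.

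Rps6ka4 encodes MSK2, a nuclear kinase that phosphorylates CREB and histone H3 downstream of p38 and ERK. Its probe on chromosome 19 read 192, 232, 291 and 202 in the Nd2-mutant mice 28, 32, 34 and 35, and 177, 255, 185 and 214 in the control mice 15, 16, 17 and 37. Mutant mouse 34 was the highest and control mouse 15 the lowest, and the strains overlapped between them. The means were 229 ± 44.3 and 208 ± 35.4 (SD, n = 4), and the log2 difference was 0.13 with a standard error of 0.17 (limma, adjusted p = 0.827).

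Rps6ka5, encoding MSK1, was represented by 2 probes on chromosome 12 that missed the filter. ILMN_1233577 read 37.1, 14.7, 18.0 and 7.95 in the Nd2-mutant mice 28, 32, 34 and 35, and 18.97, 10.7, 21.2 and 21.5 in the control mice 15, 16, 17 and 37. It was detected in 3 mice of each strain, and the Nd2-mutant mice held both the highest and the lowest value. ILMN_2752748 ranged from -10.1 to 2.95 and was detected on 0 of 8 arrays, so that the probes of Rps6ka5 did not give the same picture.

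**Figure D2:**
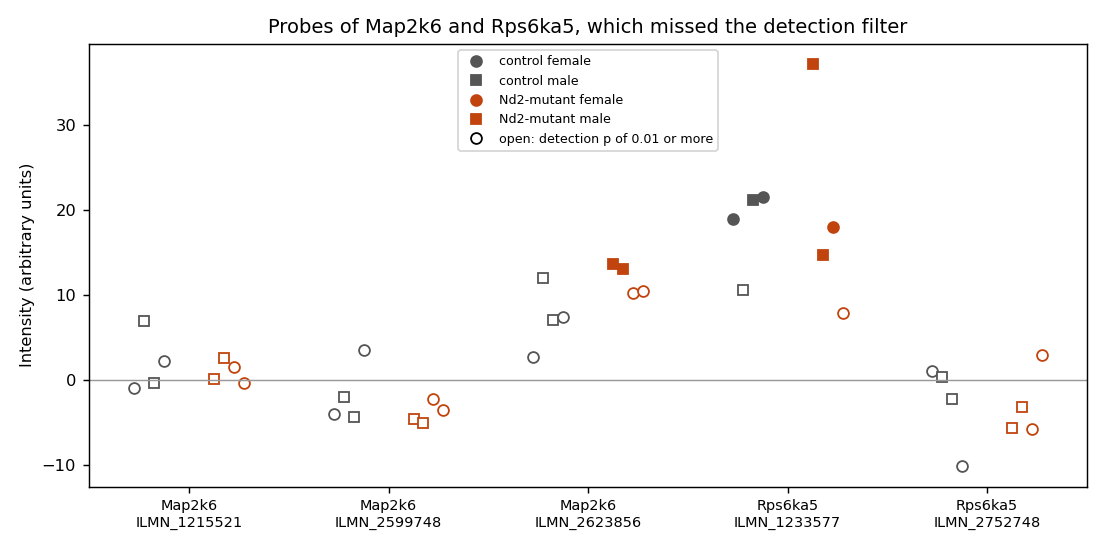
Normalized intensity (arbitrary units, linear axis) of the 3 Map2k6 and 2 Rps6ka5 probes in each mouse; colour gives the strain and shape the sex, and filled points are values with a detection p-value under 0.01. ILMN_2623856 is filled in 2 Nd2-mutant males only and Rps6ka5 ILMN_1233577 in 6 of 8 mice, while the other 3 probes scatter around 0.

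The sexes were compared because each strain held 2 males and 2 females. Map2k3 was the kinase around p38 with a sex difference at an unadjusted p under 0.05: its mean was 1344 ± 122 in the females and 842 ± 58.4 in the males (SD, n = 4), which is 1.596-fold higher in females. All 4 females (1502, 1204, 1343 and 1326) lay above all 4 males (878, 904, 779.7 and 807). The log2 difference, female minus male with strain as a term, was 0.66 with a standard error of 0.13 and a 95% interval from 0.36 to 0.96 (limma, unadjusted p = 0.000642). After adjustment over all probes it did not pass (limma, adjusted p = 0.243), although it ranked 27th among the 10414 probes. The exact permutation p was 0.0286 (2-sided), the smallest that 4 against 4 values allow, and 0.0556 when sex was exchanged within the strains, again the smallest possible. The difference was 0.74 within the Nd2-mutant strain and 0.59 within the controls.

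So 1 of the 6 tested kinases had an unadjusted p under 0.05 for sex, against 8.31% of all probes tested, and 4.45% in the direction of the females. A complete separation of the sexes was seen for 1 of the 6, against 5.16% of all probes and 2.67% with all females above all males. At an adjusted p of 0.05 the count was 0 of 6, and 0.0192% of all probes (2 probes). Without control mouse 15 the difference of Map2k3 between females and males had the same direction, with male minus female at -0.61 (limma, unadjusted p = 0.000978, adjusted p = 0.177).

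Values of other cell types stand beside this difference. The summed intensity of the fibroblast markers ranged from 33223 to 43372 in females and from 29346 to 38896 in males. For the macrophage markers, 2 of 7 of which were detected on all arrays, the range was 234 to 1480 in females and 198 to 426 in males. The endothelial markers (3 of 5 detected on all arrays) ranged from 128 to 534 and from 206 to 364, the keratinocyte markers (2 of 4) from 195 to 929.6 and from 304 to 1149, and the markers of smooth muscle cells and pericytes (4 of 5) from 21324 to 32367 and from 24943 to 28613. The sum for smooth muscle cells and pericytes was mostly Acta2, whose brightest probe read 10063 to 13935. Myh11, Des and Cspg4 read at most 227, 136 and 59, and Rgs5 was detected on no array. That sum thus follows Acta2 and was not tested as a measure of these cells. The melanocyte and adipocyte markers were detected on all arrays for 0 of 4 and 0 of 3 genes. The ranges of females and males overlapped in all these lists, as did the number of detected probes, 10735 to 11321 in females and 10663 to 11350 in males, and their part in the result was not tested. In bulk RNA, fewer cells of a type and less RNA per cell cannot be told apart.

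The other tested kinases did not separate the sexes. Mapkapk3 was lower in females by 0.38 on the log2 scale, with a 95% interval of the female minus male difference from -0.85 to 0.091 (limma, adjusted p = 0.671, exact permutation p = 0.0571). Map3k7 was lower in females by 0.29, with an interval from -0.70 to 0.11 (limma, adjusted p = 0.702, exact permutation p = 0.0857). The differences of Map2k4 (-0.063), Mapkapk2 (0.12) and Rps6ka4 (0.020) were smaller than their standard errors of 0.15, 0.17 and 0.18. Control mouse 17 decided a call: without it Mapkapk3 had an unadjusted p of 0.0445 for sex (male minus female 0.51, limma, adjusted p = 0.662).

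**Figure D3:**
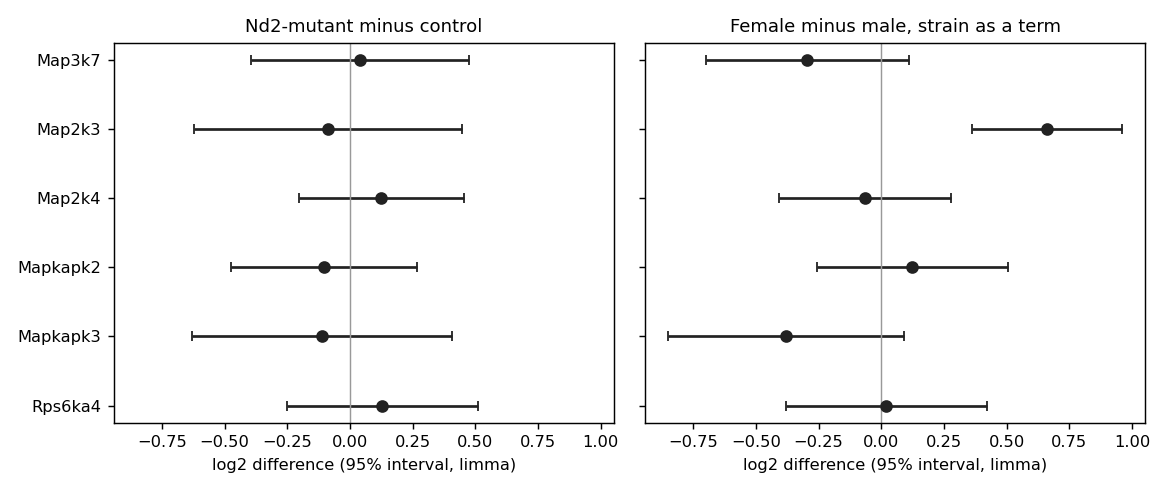
Log2 differences of the 6 tested kinases (points) with 95% intervals from limma (bars), for Nd2-mutant minus control on the left and for female minus male with strain as a term on the right; the vertical line marks 0. All 6 intervals of the strain difference cross 0, and among the sex differences the interval of Map2k3, from 0.36 to 0.96, does not.

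Whether the strain difference depended on sex was fitted as an interaction. Of the 6 kinases, 0 had an unadjusted p under 0.05 in limma (1.77% of all probes tested did) and 0 an adjusted one (0.00960%, 1 probe), with unadjusted p-values between 0.122 and 0.740. The interaction, the strain difference in males minus that in females, was -0.57 for Map3k7, -0.15 for Map2k3 and -0.34 for Mapkapk2. It was -0.46 for Mapkapk3, -0.34 for Rps6ka4 and 0.11 for Map2k4. For Mapkapk3 the strain difference was -0.34 in males and 0.12 in females, for Mapkapk2 -0.27 and 0.067, and for Rps6ka4 -0.040 and 0.30. Without control mouse 17 the interaction of Mapkapk3 was -0.90, a value that rests on control mouse 16 as the only control male. With 2 mice in each cell of the full fit, none of the 6 interactions stood clear of the spread between mice.

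The 6 kinases did not vary as a block across the mice. Over the 8 arrays the Pearson correlation of log2 values was highest between Mapkapk2 and Mapkapk3, at 0.57, and lowest between Map2k4 and Mapkapk2 at -0.71. Control mouse 16 held the highest value of both Mapkapk2 and Mapkapk3, at 732 and 226. Of the MAP2Ks, Map2k3 and Map2k4 correlated at -0.30, and Map2k3 and Map3k7 at -0.59. These are descriptions over 8 arrays that share strain and sex groups. The tested probes most like Map2k4, which had the smallest strain p, were those of Ccdc47 (r = 0.97), Cog6 (0.97) and Arfgap2 (0.97). For Map2k3, chosen after its values were seen, they were Cotl1 (0.98), Cyp4b1 (0.97) and 1200016B10Rik (0.97).

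Between the upstream and downstream kinases stand the p38 genes. Mapk11 (p38β) read 90.0, 117, 106 and 90.1 in the Nd2-mutant mice 28, 32, 34 and 35, and 212, 153, 107 and 118 in the control mice 15, 16, 17 and 37. The mutant mice lay lower, with an overlap at control mouse 17, and the log2 difference was -0.45 with a standard error of 0.20 (limma, unadjusted p = 0.0477, adjusted p = 0.639). Without control mouse 15 it was -0.27 (limma, unadjusted p = 0.105), and without 1 of the mice 16, 28, 34 or 35 the unadjusted p lay between 0.0696 and 0.106. On the linear scale it was 0.0859 and with the methods' t-test 0.0815. With array weights the difference was -0.23 (limma, unadjusted p = 0.154). With 1 added before log2, no filter on detection, a trend in limma or sex as a term, the unadjusted p lay between 0.0538 and 0.0634. It stayed under 0.05 with 50 added and with filters for detection on at least 1 array or on all 8 arrays. Mapk14 (p38α) differed by 0.18, Mapk13 (p38δ) by -0.14, and the Mapk12 (p38γ) probes by -0.31 and 0.16, all at unadjusted p-values above 0.2. A further probe each of Mapk11, Mapk12 and Mapk13 missed the detection filter.

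The wider pathway was described through lists of related genes, with the probe of highest mean intensity standing for each gene. The median log2 difference between the strains was -0.024 over the 6 kinases around p38 and -0.020 over all 8003 genes tested, with 3716 genes above and 4287 below the controls. Of the 4 p38 genes 3 were lower, with a median of -0.23 that ranged from -0.32 to -0.11 without each mouse in turn. Other MAP3Ks and MAP2Ks were lower in 7 of 11 tested genes, with a median of -0.13 that shrank to -0.011 without control mouse 15 and to -0.059 without Nd2-mutant mouse 32, and 0 of them had an unadjusted p under 0.05 in limma. Of these the smallest p was that of Map2k2, the ERK activator MEK2, at a log2 difference of -0.25 (limma, unadjusted p = 0.111), which passed 0.05 on the linear scale (unadjusted p = 0.0473) and with no filter on detection (unadjusted p = 0.0487). The adaptors and regulators of the MAP3Ks, such as the TAB, TRAF and GADD45 proteins, were lower in 10 of 13 genes, with a median of -0.13 that was -0.045 without control mouse 15. The JNK and ERK kinases (3 of 5 higher, median 0.048), the other kinases activated by p38 or ERK (1 of 4 higher, median -0.062) and the substrates (5 of 11 higher, median -0.024) lay on both sides of 0.

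Single probes in these lists had an unadjusted p under 0.05 without passing adjustment. Spag9, which encodes the scaffold JIP4 of p38 and JNK, read 448, 380.5, 402 and 489 in the Nd2-mutant mice 28, 32, 34 and 35 on probe ILMN_3131887, and 369, 264, 363 and 337 in the control mice 15, 16, 17 and 37. Every Nd2-mutant value lay above every control value, and the log2 difference was 0.36 with a standard error of 0.15 (limma, unadjusted p = 0.0409, adjusted p = 0.639). Without 1 of the mice 16, 28, 34, 35 or 37 the unadjusted p was between 0.0551 and 0.115, with the smallest difference, 0.26, without control mouse 16. The other 3 tested Spag9 probes had differences of -0.049, -0.32 and -0.26, so that the probes of this gene did not agree in sign. A single probe of Mapk3 (ERK1) was higher in Nd2-mutant cells by 0.49 on the log2 scale (limma, unadjusted p = 0.0171, adjusted p = 0.639), but by 0.36 without Nd2-mutant mouse 34 (unadjusted p = 0.0563), and the unadjusted p was 0.0772 on the linear scale. In males only the difference was 0.16. The brightest probe of this gene differed by 0.093. Of the kinases activated by p38 or ERK, Rps6ka3 (RSK2) had the smallest p, with a difference of 0.20 (limma, unadjusted p = 0.234).

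**Figure D4:**
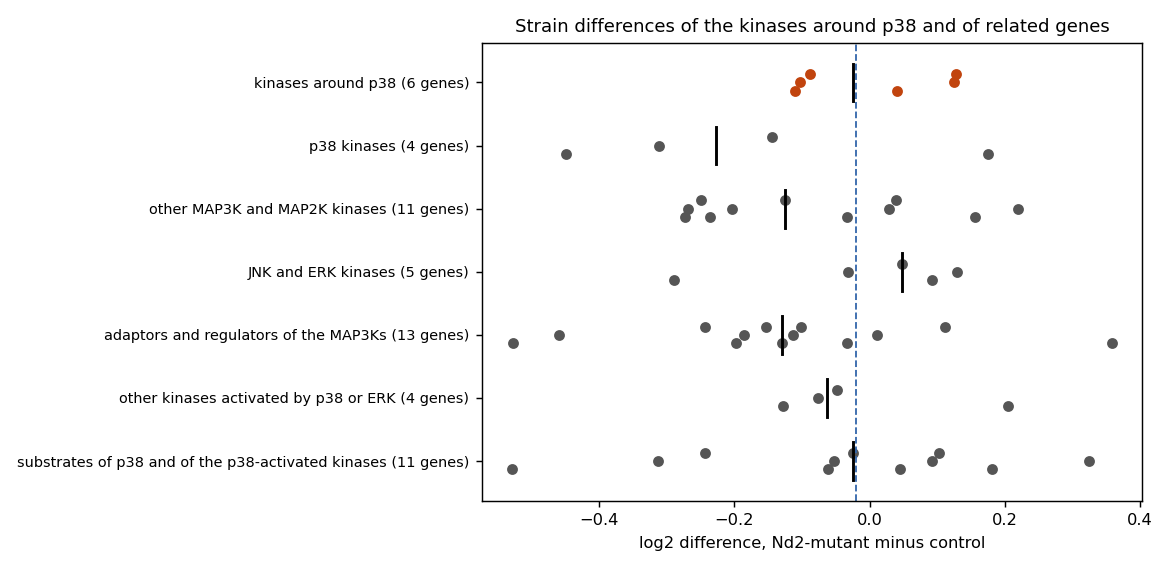
Log2 difference between Nd2-mutant and control mice for each tested gene (points, 1 probe per gene) in 7 lists of the pathway, with the list median (black bar) and the median of all 8003 tested genes (dashed line). The 6 kinases around p38 (orange) lie between -0.11 and 0.13, on both sides of the dashed line at -0.020.

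By sex, the list of other MAP3Ks and MAP2Ks held further genes with the pattern of Map2k3. Of its 11 tested genes, 9 were lower in males, beside 3961 of all 8003 tested genes. At an unadjusted p under 0.05 in limma, 3 of the 11 were lower in males, beside 390 of the 8003. The list median was -0.22 (male minus female), beside 0.0029 over all genes. Map3k14 (NIK), which activates the noncanonical NF-κB pathway, read 150, 183, 189 and 138 in the females 34, 35, 15 and 37, and 108, 79.0, 65.4 and 67.1 in the males 28, 32, 16 and 17. Every female lay above every male, and the log2 difference, female minus male, was 0.93 with a standard error of 0.17 (limma, unadjusted p = 0.000299, adjusted p = 0.206).

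Map3k6 (ASK2), a partner of ASK1, read 191, 179.6, 326 and 170.3 in the females 34, 35, 15 and 37, and 90.4, 123, 125 and 125 in the males 28, 32, 16 and 17. Map3k8 (TPL2), an ERK-activating MAP3K, read 74.3, 89.2, 85.4 and 62.1 in the same females, and 47.4, 36.8, 17.7 and 61.1 in the same males. Both genes lay higher in every female than in any male, for Map3k8 by a narrow gap between control mice 37 and 17. The log2 differences, female minus male, were 0.78 for each, with standard errors of 0.20 and 0.24 (limma, adjusted p = 0.348 and 0.461). In the other direction stood the stress-induced MAP3K4 activator Gadd45b, which differed by -1.16, female minus male (limma, unadjusted p = 0.0205, adjusted p = 0.524). Gadd45b differed by -2.04 within the Nd2-mutant strain and by -0.27 within the controls, and its interaction was 1.76 (limma, unadjusted p = 0.0256, adjusted p = 0.9999). Its values in females, 95.6, 102, 501 and 164 in mice 34, 35, 15 and 37, overlapped with those of 559, 370, 432 and 287 in the males 28, 32, 16 and 17, through control mouse 15. Without that mouse the difference, male minus female, was 1.64 in place of 1.16 (limma, adjusted p = 0.0820), and without Nd2-mutant mouse 28 it was 0.86 (limma, unadjusted p = 0.0718). Without 1 of the mice 32, 34 or 35 the unadjusted p lay between 0.0503 and 0.0653.

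**Figure D5:**
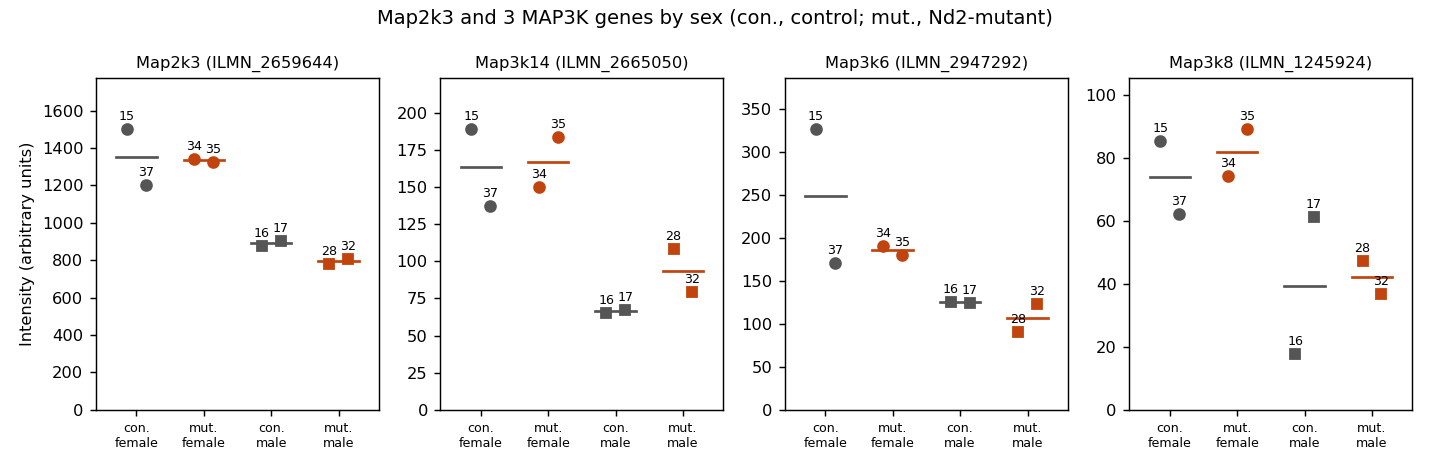
Normalized intensity (arbitrary units, linear axes from 0) of Map2k3, Map3k14, Map3k6 and Map3k8 in each mouse, by sex and strain; points are mice, numbered as in the labels, and bars are means of 2 mice. In each panel all 4 females lie above all 4 males, with the narrowest gap for Map3k8, 62.1 against 61.1. The genes were picked for an unadjusted p under 0.05 for sex (limma) with females higher, so the panels are no test of the pattern. None passed adjustment, and Gadd45b, which differed in the other direction, is not shown.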

How the data were processed

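Illumina MouseRef-8 v2.0 arrays were used for the RNA of 8 mice, and the labels gave each array's strain, sex and mouse. GenomeStudio was used by the authors for extraction, with quantile normalization and, where necessary, background subtraction, and the deposited intensity values are linear, from -12.3 to 13935, with 26.2% at or below 0. The deposited detection p-value compares each probe with negative controls. Both deposited tables hold the same values.

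Negative intensities were replaced by 0 and 16 was added before taking log2, which understates changes of dim probes. Probes with a detection p-value under 0.01 on all 4 arrays of at least 1 strain were tested (10414 probes of 8003 genes) with limma 3.58.1 in R 4.3.3 (2-sided), and p-values were adjusted by Benjamini-Hochberg over all these probes, with a threshold of 0.05. Each gene's level was also tested by an exact permutation test of 4 against 4 mice, which cannot give a p below 0.0286. The fit for sex held strain as a term, and a fit with their interaction was added. The fits were tested on simulated data. The number of arrays limits the precision.

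Symbols were matched exactly, and no probe carried a missing kinase name as a synonym. Named were all probes of the 10 kinases and of the p38 genes, of each list the probes at an unadjusted p under 0.05 or else the one with the smallest p, and the 3 probes most like the kinase with the smallest p. Some probes that met this rule are not reported here. The kinases and lists were chosen with earlier results of these data known. No probe's level was set against another's. Alternatives changed the added value, scale, detection filter, test, covariates and mice.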

Additional observations from a re-analysis of the deposited data

How the results depend on the processing

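No tested kinase around p38 reached an unadjusted p under 0.05 for the strain difference under any of 20 alternatives, and the lowest adjusted p of any of them was 0.576. Over all genes, limma called 0 at an adjusted p of 0.05 (725 at an unadjusted one), 3 with no filter on detection and 1 with the methods' t-test, and 0 without each mouse in turn; the cause was not tested. Direction was less stable: of the 6 kinases Map2k4 kept it under every alternative (0.054 to 0.20 without each mouse in turn). Leaving out a mouse left the sexes uneven between the strains, and those fits held no term for sex. With array weights the log2 difference turned to -0.023 for Map3k7, 0.026 for Mapkapk2 and 0.047 for Mapkapk3. In male mice only it was -0.25 for Map3k7 and -0.040 for Rps6ka4, and in female mice only 0.067 for Mapkapk2, 0.12 for Mapkapk3 and 0.041 for Mapk13. Leaving out each mouse in turn gave ranges of -0.21 to 0.062 for Map2k3, -0.11 to 0.15 for Map3k7, -0.27 to 0.14 for Mapkapk3 and -0.33 to 0.012 for Mapk13, while Mapkapk2 (-0.18 to -0.0088) and Rps6ka4 (0.015 to 0.22) kept their sign there. Of 11 other probes chosen by the naming rule for strain, 10 kept their direction throughout. Without each mouse in turn, the median of the substrate list ranged from -0.038 to 0.092, the latter without Nd2-mutant mouse 34, and on the linear scale it was -0.063. In the same way the medians ranged from -0.21 to -0.011 for the other MAP3Ks and MAP2Ks, from -0.19 to -0.045 for the adaptors and from -0.0052 to 0.093 for the JNK and ERK kinases. All 5 probes named for sex kept their direction, Map2k3 at unadjusted p-values of 0.00015 to 0.0034 and adjusted ones of 0.101 to 0.874. The count of kinases at an unadjusted p under 0.05 for sex ranged from 1 to 2 without each mouse in turn. The higher count was that without control mouse 17, through Mapkapk3. For the interaction, leaving out a mouse leaves 1 mouse in a cell, so no count is given. No paired analysis was possible because no mouse number occurs in both strains. Normexp from non-normalized values and a block for the chip could not be run: both tables hold normalized values and no chip is named. Dim probes such as Map2k6 and Rps6ka5 limit what could be tested.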
